A study of Mus musculus with 4 samples.

Results

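The 9 genes described here encode enzymes that break down fatty acids inside mitochondria: Cpt2, Acadvl, Acadl, Acadm, Etfdh, Hadha, Hadhb, Acaa2 and Decr1. They were taken by symbol from the count tables, which hold 24625 genes. They were put together as enzymes of mitochondrial and peroxisomal fatty acid oxidation, but all 9 act in mitochondria, and genes of the peroxisomal pathway are described beside them. The cells were peritoneal macrophages from C57BL/6 mice (C57BL/6J in the study's design text) kept on a high-fat diet supplying 60% of its energy as fat, against a control diet, called standard chow in the design text, for 12 weeks. All mice received 3% thioglycollate medium, an irritant that draws macrophages into the peritoneal cavity, and cells were taken 4 days later. Each diet had 2 libraries of ribosomal RNA-depleted total RNA, with no word in the labels on whether each came from its own mice, so p-values measure only the spread between these libraries, which may be technical. Cells drawn by thioglycollate are largely recruited ones and stand in only in part for the macrophages that live in the cavity.

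Fatty acids are joined to coenzyme A, handed to carnitine to cross the inner mitochondrial membrane and handed back to coenzyme A on the inside, the step that Cpt2 carries out. Rounds of dehydrogenation, hydration, a further dehydrogenation and thiolytic cleavage then shorten the chain and release acetyl-CoA, and the electrons of the opening dehydrogenation reach the respiratory chain through the electron transfer flavoprotein and Etfdh. In macrophages the pathway is best known from studies of alternative activation and of lipid-laden cells, and the nuclear receptors of the PPAR family, which bind fatty acids, control many of its genes.

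Total counts on genes were 45658551 and 40527591 in high-fat replicates 1 and 2, and 39846646 and 39347347 in control replicates 1 and 2. Macrophage markers were abundant in all libraries, with a summed level of 19988 and 24435 CPM (counts scaled to a common library total) with high-fat diet and 26805 and 25758 CPM with control diet over 11 listed genes, of which 1 was called lower. Of these 11 genes 1 had a log2 fold change above 0, and the median was -0.18. For this and the other marker lists, 49.2% of all kept genes had a log2 fold change above 0. By edgeR at an adjusted p under 0.05, 0.322% of all kept genes were called higher and 0.290% lower. Lyz2 alone had 16399 and 20995 CPM with high-fat diet and 22930 and 22094 CPM with control diet. The 14 markers of mesothelial cells and fibroblasts summed to 174 and 86.8 CPM with high-fat diet, against 21.4 and 28.6 CPM with control diet. All 12 of them that were kept had log2 fold changes above 0, and 1 was called higher. Among them Wt1, Lrrn4 and Lum had fewer than 10 counts in both control libraries. These genes were kept through the high-fat libraries, which favours a value above 0. The 8 B cell markers found in the files summed to 64.8 and 163 CPM with high-fat diet, against 63.1 and 60.4 CPM with control diet. All 8 had log2 fold changes above 0, and 1 of them was called higher. Of the 8 adipocyte markers, Lep had 0 counts in every library, Adipoq had 0 and 0 counts with high-fat diet and 0 and 2 counts with control diet, and the list summed to 13.3 and 10.3 CPM with high-fat diet and 14.7 and 11.7 CPM with control diet. Neutrophil markers summed to 58.2 and 55.4 CPM with high-fat diet and 90.1 and 93.0 CPM with control diet. Of their 7 kept genes 0 had a log2 fold change above 0 and 2 were called lower. Retnlg, with 2 and 4 counts with high-fat diet, was kept through the control libraries, which favours a value below 0. Dendritic cell markers summed to 3.83 and 4.33 CPM with high-fat diet, against 10.8 and 11.3 CPM with control diet. Of their 6 genes 0 lay above 0 and 1 was called lower. Siglech, with 7 and 10 counts with high-fat diet, was kept through the control libraries. Large peritoneal macrophage markers summed to 10.5 and 11.5 CPM with high-fat diet, against 30.5 and 12.6 CPM with control diet, with 1 of 6 kept genes above 0 and 1 called lower. Eosinophil markers, with Ear6 at 0 in all libraries, summed to 5.11 and 7.78 CPM with high-fat diet, against 10.3 and 19.6 CPM with control diet, and those of T and NK cells to 4.31 and 21.3 CPM with high-fat diet, against 5.84 and 7.75 CPM with control diet, with 0 called in either list. The part of these other cells in the results was not tested. In such bulk samples fewer cells of a type and less RNA per cell cannot be told apart.

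Start regions are shown for 3 cases that the results below return to. Hadha and Hadhb lie back to back on chromosome 5: in the deposited mm9 gene models Hadha starts at position 30481520 on the minus strand and Hadhb at 30481793 on the plus strand, with 272 bases between. RefSeq start-region windows on GRCm38.p6, running from 250 bases before to 50 after each start, matched 7 of the 9 genes. The windows of Hadha and Hadhb share 228 bases, so the starts of both subunits of a single enzyme complex border this stretch, shown on the plus strand at chr5:30155003-30155230:

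Hadha-Hadhb shared: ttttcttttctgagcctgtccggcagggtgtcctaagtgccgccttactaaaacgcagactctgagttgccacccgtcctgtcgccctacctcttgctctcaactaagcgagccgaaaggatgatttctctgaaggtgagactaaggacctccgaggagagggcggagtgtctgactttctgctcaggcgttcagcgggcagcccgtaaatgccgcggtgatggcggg

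Etfdh had the smallest p of the 9 genes, and Acadvl had the lowest log2 fold change, so their windows are shown too, each on the gene's own minus strand at chr3:79628718-79629017 and chr11:70015379-70015678. Capitals mark matches to the motifs searched.

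Etfdh: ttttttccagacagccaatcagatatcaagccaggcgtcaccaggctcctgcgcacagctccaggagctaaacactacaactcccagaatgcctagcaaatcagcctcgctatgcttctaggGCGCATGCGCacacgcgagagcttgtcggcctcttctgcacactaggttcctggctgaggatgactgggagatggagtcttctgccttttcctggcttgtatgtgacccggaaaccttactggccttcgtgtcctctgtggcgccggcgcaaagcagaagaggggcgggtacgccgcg

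Acadvl: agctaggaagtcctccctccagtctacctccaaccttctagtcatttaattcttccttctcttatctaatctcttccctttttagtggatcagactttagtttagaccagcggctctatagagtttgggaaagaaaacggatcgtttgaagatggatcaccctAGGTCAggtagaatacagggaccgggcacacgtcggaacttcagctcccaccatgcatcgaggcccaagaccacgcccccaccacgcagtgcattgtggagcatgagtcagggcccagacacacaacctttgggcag

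Motifs were searched on both strands, and they were chosen after some of the sequences had been seen. The palindromic NRF1 element, in capitals in the Etfdh window, stood in 0.971% of all 32851 windows of the same length. The nuclear receptor half-site AGGTCA stood in the windows of Acadm and Acadvl (capitals above) and in 16.3% of all windows. The element CCGGAAGT of the ETS family, which includes GABP, stood in the Cpt2 window and in 3.89% of all windows. An exact direct repeat of that half-site with 1 base between, a form bound by PPAR, stood in none of the 7 windows. It stood in only 0.0396% of all windows, so none in 7 says little, and inexact repeats were not searched. The estrogen-related receptor element TCAAGGTCA, which also contains the half-site, stood in none of the 7 and in 0.423% of all. These are matches of letters only, and they say nothing of whether a factor bound there.

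Levels can be compared between genes only per length, here as CPM per kilobase of exons averaged over the 4 libraries. Hadhb, the thiolase subunit of the mitochondrial trifunctional protein, was the most abundant of the 9 at 100 CPM per kilobase, above 94.2% of the 12747 genes kept for testing. Cpt2 was the least abundant at 6.60 CPM per kilobase, above 54.8% of kept genes. The order was Hadhb, Acadm, Hadha, Acadl, Etfdh, Acaa2, Decr1, Acadvl and Cpt2. The ranges over the 4 libraries did not overlap between Hadhb and Acadm, Hadha and Acadl, or Acadvl and Cpt2, and they overlapped for the other neighbours. Within each single library every neighbour kept this order except Etfdh and Acaa2, since Acaa2 stood above Etfdh, and above Acadl, in high-fat replicate 1.

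**Figure D1:**
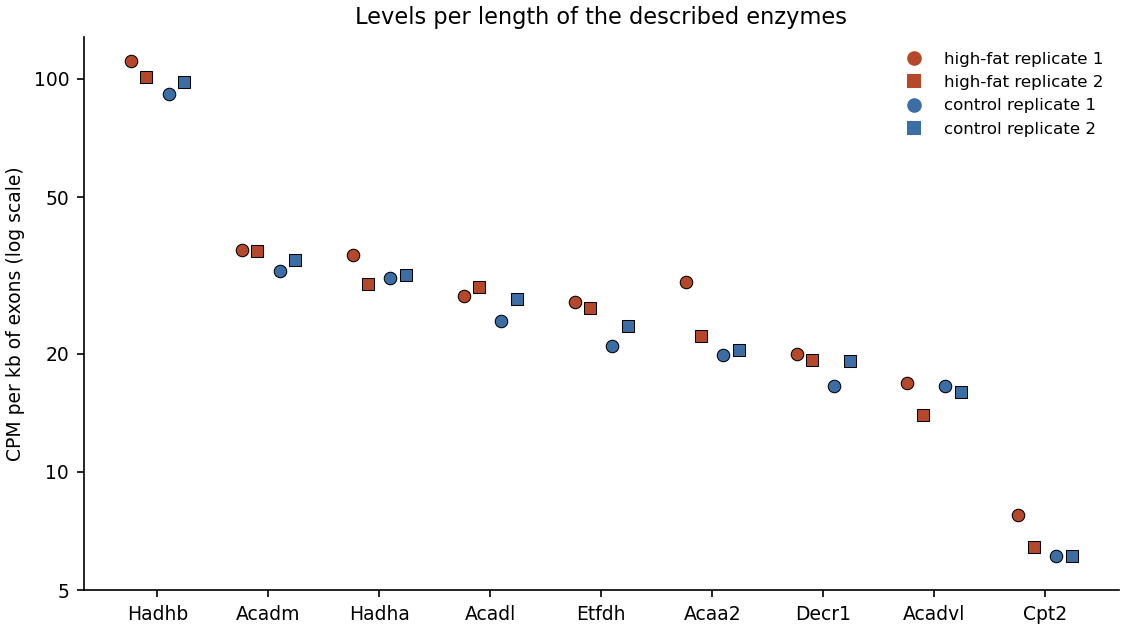
Levels of the 9 genes per kilobase of exons in each of the 4 libraries, on a log axis, ordered by their mean. Points are single libraries. Hadhb stands above the rest at about 100 CPM per kilobase and Cpt2 below them at 6.60 CPM per kilobase, while most genes between overlap their neighbours.

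None of the 9 genes passed an adjusted p of 0.05 between the diets by edgeR's quasi-likelihood test, whereas 0.612% of all kept genes did. At an unadjusted p under 0.05 there were 2, Acaa2 and Etfdh, both higher with high-fat diet, against 8.56% of kept genes higher at that level. DESeq2, which called 2.72% of its tested genes, and limma-voom called 0 of the 9 as well. Of the 9 log2 fold changes 8 were above 0, against 49.2% of kept genes, with a median of 0.16 for the 9 and -0.0054 for all kept genes. In 7 genes both high-fat libraries lay above both control libraries, against 26.1% of kept genes, and 51.0% of kept genes did not overlap in either direction. Together the 9 genes took 0.0730% and 0.0645% of gene counts with high-fat diet, against 0.0606% and 0.0631% with control diet. High-fat replicate 1 held the highest value for 8 of the 9 genes. All 9 had between 556 and 10659 counts in every library, so none entered the test through 1 diet alone.

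**Figure D2:**
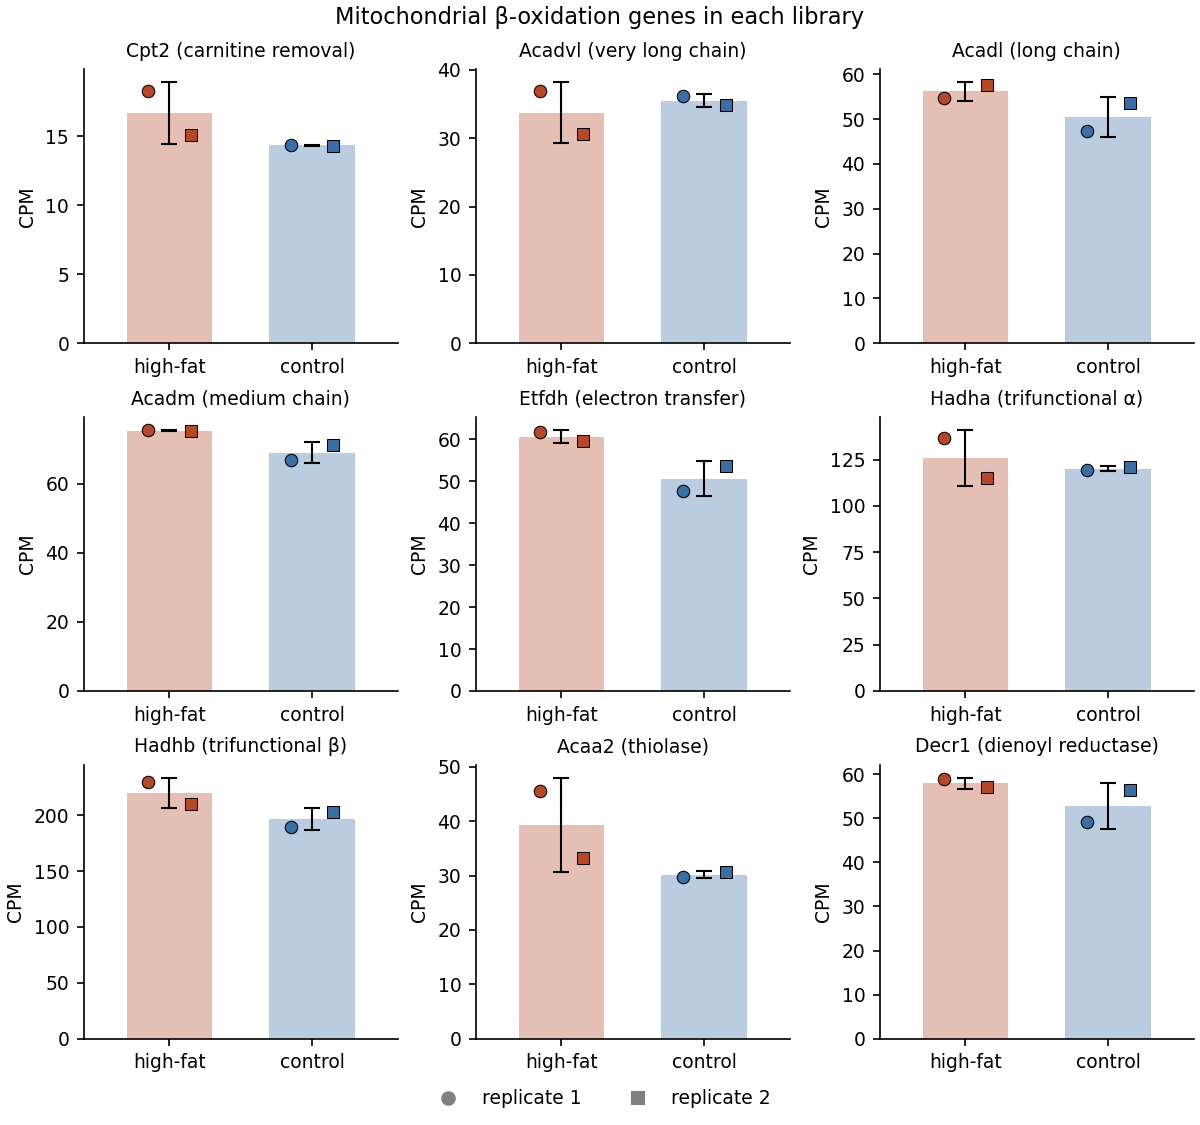
CPM of each gene by diet, with high-fat left of control. Bars are means, error bars SD of 2 libraries, and points single libraries. The gap between the diet means exceeds the gap within either diet for Acadm, Hadhb and Etfdh only, while Acaa2, with the highest fold change, stood at 45.5 and 33.2 CPM with high-fat diet and 29.7 and 30.7 CPM with control diet.

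Cpt2 returns the acyl group from carnitine to coenzyme A at the inner mitochondrial membrane and lies on chromosome 4 (mm9 107576587 to 107596194, 5 exons). It had 18.3 and 15.1 CPM with high-fat diet, against 14.4 and 14.3 CPM with control diet. The diets did not overlap, but high-fat replicate 2 stood close to both control libraries. Its log2 fold change was 0.22 ± 0.14 (SE; adjusted p = 0.462, edgeR), with a 95% interval from -0.10 to 0.54. It was 0.0742 without high-fat replicate 1, and leaving out high-fat replicate 2 gave 0.35. This gene and Acaa2 varied most alike of the 36 pairs among the 9 genes (r = 0.996 over 4 libraries, 2 of each diet).

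The 2 genes that hand acyl groups to and through the carnitine shuttle ahead of Cpt2 differed more. Cpt1a, the outer-membrane carnitine palmitoyltransferase whose inhibition by malonyl-CoA controls entry, had 163 and 120 CPM with high-fat diet, against 98.7 and 93.3 CPM with control diet. Slc25a20, the carnitine-acylcarnitine carrier of the inner membrane, had 51.6 and 46.1 CPM with high-fat diet, against 31.9 and 35.1 CPM with control diet. Neither gene overlapped between diets. Their log2 fold changes were 0.56 ± 0.14 and 0.54 ± 0.11, and both missed the threshold by edgeR (adjusted p = 0.121 and 0.0642), while DESeq2 called both higher (adjusted p = 0.0101 and 0.00804). The log2 fold change of Cpt1a was 0.76 without high-fat replicate 2, against 0.32 when high-fat replicate 1 was left out. Whether the shuttle genes differed from Cpt2 in their response was not tested. Among the other 3 kept shuttle genes, the cell-surface carnitine transporter Slc22a5 had a log2 fold change of 0.16, the peroxisomal carnitine octanoyltransferase Crot 0.14 and carnitine acetyltransferase Crat -0.13. The muscle isoform Cpt1b had 1 and 0 counts with high-fat diet and 1 and 0 with control diet.

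Acadvl, Acadl and Acadm encode the acyl-CoA dehydrogenases for very long, long and medium chains, which open each round of oxidation. Acadvl (chromosome 11, mm9 69823685 to 69828930, 20 exons) had 36.9 and 30.6 CPM with high-fat diet, against 36.2 and 34.9 CPM with control diet. Its high-fat libraries fell on either side of the controls, and the log2 fold change was -0.07 ± 0.12 (adjusted p = 0.772, edgeR). Acadl (chromosome 1, mm9 66877413 to 66909883, 11 exons) had 54.7 and 57.6 CPM with high-fat diet, against 47.3 and 53.5 CPM with control diet. The diets did not overlap for Acadl, but the gap between its control libraries exceeded the difference between the diet means on the log2 scale, and its log2 fold change was 0.16 ± 0.10 (adjusted p = 0.465). Acadm (chromosome 3, mm9 153585317 to 153607607, 12 exons) had 75.5 and 75.3 CPM with high-fat diet, against 67.0 and 71.1 CPM with control diet. The diets did not overlap for Acadm either, and its log2 fold change was 0.13 ± 0.09 (adjusted p = 0.506). Without control replicate 1 the log2 fold changes of Acadl and Acadm were 0.0575 and 0.0727, and without control replicate 2 they were 0.25 and 0.17. The 95% intervals allow folds from 0.790 to 1.14 for Acadvl, 0.949 to 1.31 for Acadl and 0.946 to 1.26 for Acadm. Acads, the short-chain enzyme of the same family, had a log2 fold change of -0.39 ± 0.21 at a control mean of 6.13 CPM (unadjusted p = 0.0869, edgeR).

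Etfdh encodes the ubiquinone oxidoreductase that takes electrons from the electron transfer flavoprotein, and with them those of all the acyl-CoA dehydrogenases above (chromosome 3, mm9 79407710 to 79432689, 13 exons). It had 61.8 and 59.6 CPM with high-fat diet, against 47.7 and 53.6 CPM with control diet. Its high-fat libraries lay close together and above both controls, and the difference between diet means exceeded the gap within either diet, as it also did for Acadm and Hadhb but for no other of the 9 genes. The log2 fold change was 0.26 ± 0.10 (unadjusted p = 0.0283, adjusted p = 0.246, edgeR), with a 95% interval from 0.03 to 0.49. It was 0.17 without control replicate 1 and 0.34 without control replicate 2. Etfa and Etfb, the 2 subunits of the flavoprotein that feeds it, had log2 fold changes of 0.29 ± 0.10 and -0.12 ± 0.15, and neither passed over all genes. Etfa had 40.4 and 41.9 CPM with high-fat diet, against 33.8 and 33.5 CPM with control diet, and its log2 fold change was 0.14 with the trends on GC content and exon length removed. The 5 kept dehydrogenases of amino acid and choline breakdown that also send electrons this way, 4 of them acting on acyl-CoA, had log2 fold changes from -0.53 to -0.03. By edgeR 1 of them was lower at an unadjusted p under 0.05, against 8.46% of kept genes. EdgeR, DESeq2 and limma-voom called 0 of them. Ivd, of leucine breakdown, had -0.47 ± 0.20, Acad8, of valine breakdown, -0.15 ± 0.12, and Sardh, the sarcosine dehydrogenase of choline breakdown, -0.53 ± 0.58 at 6 to 25 counts.

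Hadha and Hadhb encode the subunits of the trifunctional protein, which hydrates, oxidises and cleaves long-chain intermediates. Hadha (chromosome 5, mm9 30444844 to 30481520, 20 exons) had 137 and 115 CPM with high-fat diet, against 119 and 121 CPM with control diet. The high-fat libraries stood on either side of both controls, and its log2 fold change was 0.07 ± 0.11 (adjusted p = 0.766, edgeR). Hadhb (chromosome 5, mm9 30481793 to 30511133, 16 exons) had 229.6 and 210.2 CPM with high-fat diet, against 189.6 and 203.3 CPM with control diet. Its diets did not overlap, and its log2 fold change was 0.16 ± 0.10 (adjusted p = 0.429), with 0.0998 to 0.22 over the fits leaving out 1 library, the lowest without high-fat replicate 1. Per kilobase of exons Hadhb exceeded Hadha by 3.11 and 3.37 times in the high-fat libraries and by 2.94 and 3.10 times in the control libraries, so the ratio of 2 genes that share a start region was far from even in all 4 libraries. The high-fat ratios lay above the control ratios by a narrow margin, and an exact two-sided permutation test of 2 libraries against 2 cannot reach 0.05. With the trends on GC content and exon length removed, the log2 fold change was 0.05 for Hadha and 0.02 for Hadhb, the reverse order. Of Hadha exons 77 bases (2.01%) overlap Gareml on the other strand, and no source used here gives the strand setting of the counting. Echs1 and Hadh, which carry out the hydration and the further dehydrogenation for shorter chains, had log2 fold changes of -0.25 ± 0.10 (unadjusted p = 0.0320) and 0.11 ± 0.16, neither called over all genes. Acad12, a further acyl-CoA dehydrogenase family member, had 3.08 and 2.70 CPM with high-fat diet, against 4.12 and 4.17 CPM with control diet (log2 fold change -0.52 ± 0.20, unadjusted p = 0.0305).

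Acaa2, the mitochondrial 3-oxoacyl-CoA thiolase that cleaves off acetyl-CoA (chromosome 18, mm9 74938866 to 74965861, 10 exons), had the highest log2 fold change of the 9 genes. It had 45.5 and 33.2 CPM with high-fat diet, against 29.7 and 30.7 CPM with control diet. Both high-fat libraries lay above both controls, but most of the difference came from high-fat replicate 1. The log2 fold change was 0.38 ± 0.15 (unadjusted p = 0.0297, adjusted p = 0.250, edgeR). It was 0.14 without high-fat replicate 1. Leaving out high-fat replicate 2 in its place gave 0.59, and each of these 2 fits held 1 high-fat library. High-fat replicate 1 also held the higher sum of mesothelial and fibroblast markers, 174 CPM against 86.8 CPM in high-fat replicate 2, and their part in the Acaa2 value was not tested.

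Decr1 encodes the mitochondrial 2,4-dienoyl-CoA reductase, an auxiliary enzyme for unsaturated chains (chromosome 4, mm9 15844387 to 15872654, 10 exons). It had 58.9 and 57.04 CPM with high-fat diet, against 49.1 and 56.5 CPM with control diet. High-fat replicate 2 and control replicate 2 were nearly level, and the log2 fold change was 0.13 ± 0.10 (adjusted p = 0.527, edgeR). It was 0.0246 without control replicate 1 and 0.24 without control replicate 2. The enoyl-CoA isomerases Eci1 and Eci2, which also serve unsaturated chains, had log2 fold changes of -0.05 and 0.10.

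**Figure D3:**
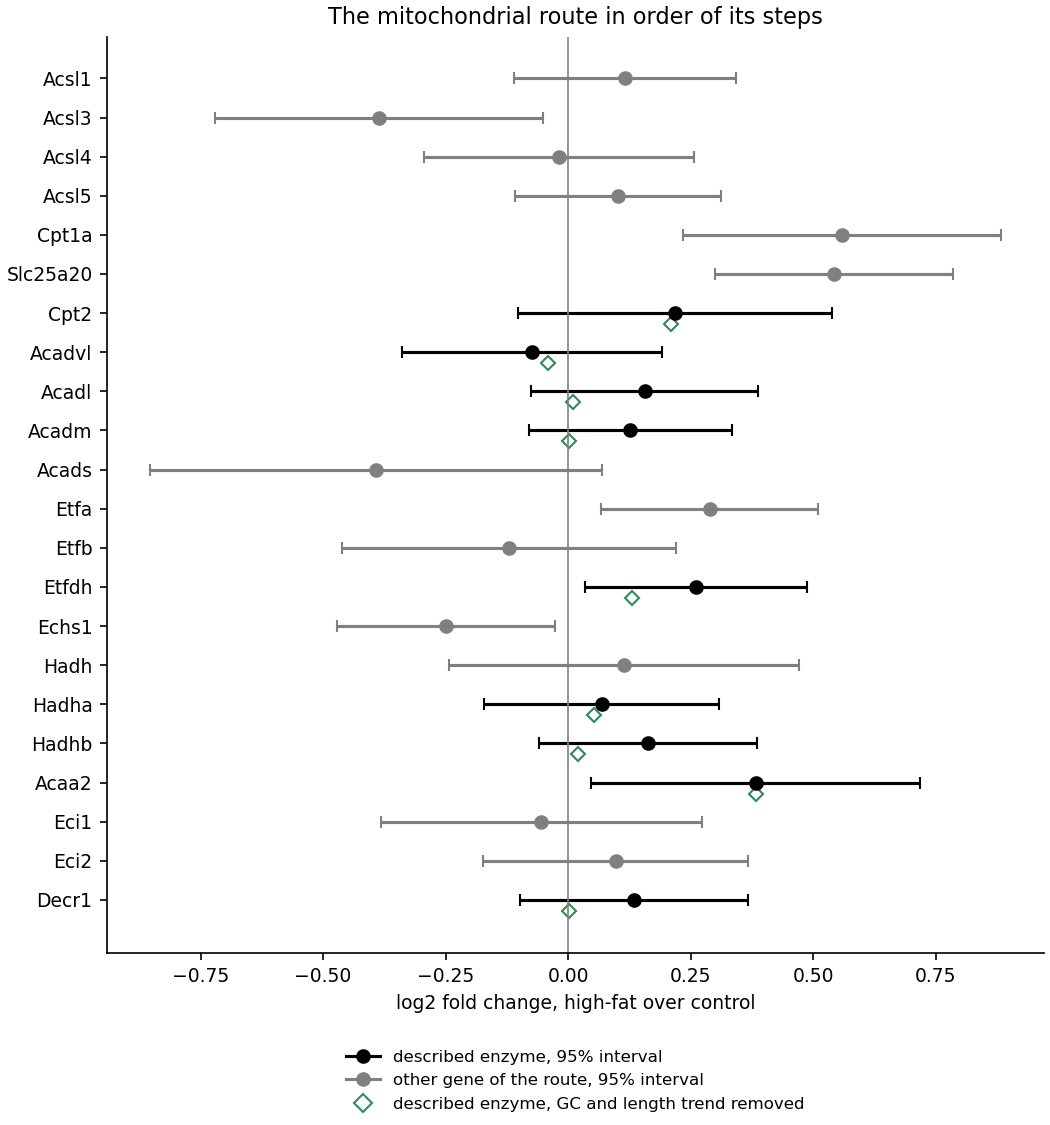
Log2 fold changes, high-fat over control, along the mitochondrial route from activation (top) to auxiliary enzymes (bottom). Circles and bars give the edgeR value with its 95% interval, and diamonds the value of the 9 genes with the trend on GC content and exon length removed. Cpt1a and Slc25a20 lie furthest right at 0.56 and 0.54, and Acadl, Acadm, Hadhb and Decr1 move to near 0 once the trend is removed.

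Fold changes over all genes varied with the base composition of the transcripts, so a fit was also made with the trends on GC content and exon length removed together, which does not separate the 2. Across 12148 kept genes with a value, log2 fold change and GC content correlated at r = -0.255, and among the 9 genes at r = -0.079, genes sharing libraries. Kept genes under 45% GC, where Decr1 falls, had a median log2 fold change of 0.12, with 42.7% of them higher in both high-fat libraries. Those of 45 to 50% GC had 0.05 and 34.98%, and those of 50 to 55% GC had -0.05 and 19.1%. Above 55% GC, where none of the described genes falls, the values were -0.19 and 8.42%. Acadl, Acadm, Hadhb, Decr1 and Etfdh had a GC content from 44.4% to 48.0%, and Hadha, Cpt2, Acaa2 and Acadvl from 51.3% to 53.7%. With the trend of each library on GC content and exon length removed, the log2 fold changes of Acadl, Acadm, Hadhb and Decr1 became 0.01, 0.0028, 0.02 and 0.0008, and that of Etfdh 0.13. Acaa2 and Cpt2 kept 0.38 and 0.21, and the median of the 9 genes became 0.02. In that fit 8 of the 9 lay above 0, and the median over all its genes was -0.0222. Cpt1a and Slc25a20 had 0.56 and 0.46 in that fit.

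Outside the 9 genes, 58 further genes of activation, carnitine transfer, mitochondrial and peroxisomal oxidation were listed, and 47 of them were kept. Of these 25 had log2 fold changes above 0 and 22 below, with a median of 0.01. None was called by edgeR, against 0.612% of kept genes, and 5 were higher and 6 lower at an unadjusted p under 0.05, where 8.56% and 8.46% of kept genes stood. DESeq2 called 2 higher, Cpt1a and Slc25a20, and limma-voom 0.

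Fatty acid activation held 8 kept genes, 3 above 0 and 5 below. The long-chain acyl-CoA synthetases Acsl1, Acsl4 and Acsl5 had log2 fold changes of 0.12, -0.02 and 0.10. Acsl3, which is tied to lipid droplets, had 59.8 and 82.8 CPM with high-fat diet, against 91.6 and 94.6 CPM with control diet. Both high-fat libraries lay below the controls, giving -0.39 ± 0.15 on the log2 scale (adjusted p = 0.248, edgeR). The value was -0.64 without high-fat replicate 2, against -0.17 without high-fat replicate 1. Slc27a4, a fatty acid transport protein with synthetase activity, had 11.8 and 8.94 CPM with high-fat diet, against 15.03 and 11.3 CPM with control diet, and its diets overlapped. The synthetases Acsl6, Acsm1, Acsm3 and Acsm5 had 0 counts in every library.

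In peroxisomes 20 of 22 listed genes were kept, 12 above 0 and 8 below, with a median of 0.02. None was called by edgeR, DESeq2 or limma-voom. By edgeR 1 was higher and 3 lower at an unadjusted p under 0.05, against 8.56% and 8.46% of kept genes. Hsd17b4, the multifunctional enzyme of the pathway, had a log2 fold change of 0.02. Acox3, an oxidase of branched chains, had 43.6 and 35.4 CPM with high-fat diet, against 55.3 and 51.6 CPM with control diet. Both high-fat libraries lay below both controls for Acox3, and the log2 fold change was -0.44 ± 0.12 (adjusted p = 0.133, edgeR). It was -0.59 without high-fat replicate 1, against -0.30 without high-fat replicate 2. Hacl1, a lyase of alpha-oxidation, had -0.41 ± 0.18, and Acaa1a, the peroxisomal thiolase, -0.29 ± 0.16. Nudt19, a coenzyme A diphosphatase, had 0.33 ± 0.12. Acox2 had 0 counts in every library.

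**Figure D4:**
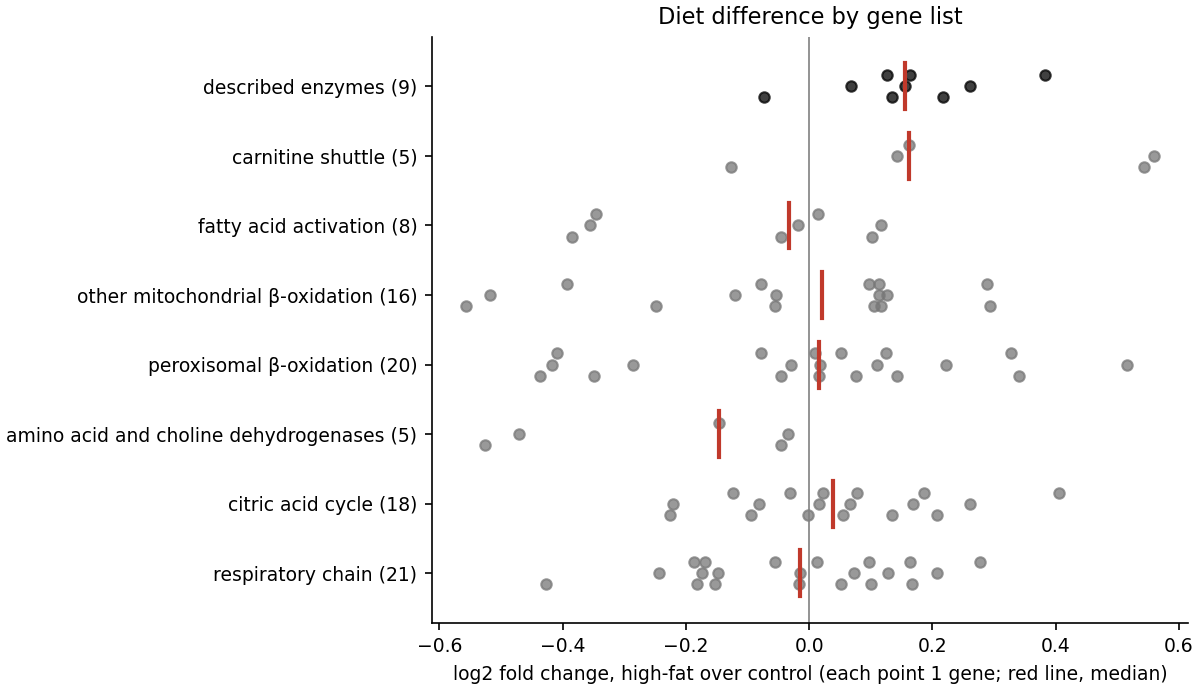
Log2 fold change of each kept gene, high-fat over control, by gene list, with the number of genes in brackets. Each point is 1 gene and the red line the median. The 9 described enzymes have a median of 0.16, beside 0.02 for peroxisomal oxidation, 0.04 for the citric acid cycle and -0.02 for the respiratory chain. With the trends on GC content and exon length removed (not drawn), these medians were 0.0204, -0.0611, 0.006 and -0.0402.

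Other mitochondrial genes served as a comparison of values. The 18 citric acid cycle genes had a median log2 fold change of 0.04, with 11 above 0, and the 21 respiratory chain subunits one of -0.02, with 10 above 0. These medians were 0.006 and -0.0402 with the trends on GC content and exon length removed, beside 0.0204 for the 9 genes. No gene of either list was called by edgeR, with 2 and 2 at an unadjusted p under 0.05, against 17.0% of kept genes. DESeq2 called the cytochrome c oxidase subunit Cox4i1 lower (log2 fold change -0.43, adjusted p = 0.0199). Cox4i1 stood at -0.25 with the trends on GC content and exon length removed (adjusted p = 0.140, edgeR). In the cycle Suclg2, a succinyl-CoA ligase subunit, had 0.40 ± 0.13, and 2 subunits of the 2-oxoglutarate dehydrogenase complex, Dld and Ogdh, had 0.26 ± 0.10 and -0.22 ± 0.10. In the respiratory chain Cox5a, of cytochrome c oxidase, had 0.28 ± 0.10 and Ndufa9, of complex I, 0.17 ± 0.09. Of 11 kept genes of propionyl-CoA and ketone body metabolism edgeR, DESeq2 and limma-voom called 0. By edgeR 2 were higher and 2 lower at an unadjusted p under 0.05, against 8.56% and 8.46% of kept genes. Pccb, a propionyl-CoA carboxylase subunit, had -0.44 ± 0.14, Mmab, of cobalamin processing, -0.57 ± 0.21 and Acat1, the mitochondrial acetoacetyl-CoA thiolase, 0.26 ± 0.11. A difference between these lists and the 9 genes was not tested.

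Of 16 kept transcriptional regulators and 9 kept genes of malonyl-CoA and AMPK control, edgeR called 0, with 1 higher and 3 lower and with 1 higher and 1 lower at an unadjusted p under 0.05. Over all kept genes 8.56% were higher and 8.46% lower at that level. Of the regulators 11 lay below 0, with a median log2 fold change of -0.26. Lpin1, a phosphatidate phosphatase and coregulator, had 12.7 and 10.7 CPM with high-fat diet, against 17.5 and 17.7 CPM with control diet (-0.58 ± 0.14, adjusted p = 0.102 by edgeR and 0.0393 by DESeq2). Gabpa, a subunit of GABP, had 0.26 ± 0.10. Pparg, which is known in macrophages for its part in lipid handling, had 132 and 128 CPM with high-fat diet, against 139 and 172 CPM with control diet, or -0.26 ± 0.12 as log2 fold change (adjusted p = 0.296, edgeR). Ppara had 4 and 9 counts with high-fat diet and 1 and 1 with control diet and was not tested. Acaca, which makes the malonyl-CoA that inhibits Cpt1a, had 50.5 and 52.8 CPM with high-fat diet, against 75.5 and 66.3 CPM with control diet. Both high-fat libraries lay below the controls for Acaca, and the log2 fold change was -0.46 ± 0.10 (adjusted p = 0.0816, edgeR; 0.0226 by DESeq2). The AMPK catalytic subunits Prkaa1 and Prkaa2 had 0.24 ± 0.10 and -0.95 ± 0.52. With the trends on GC content and exon length removed they had 0.12 and -1.03. Prkaa2 had only 9 and 10 counts with high-fat diet and 23 and 11 with control diet. Its log2 fold change was -0.36 without control replicate 1 and -1.36 without control replicate 2. EdgeR called 0.322% of all kept genes higher. Of 9 kept PPAR-responsive genes outside oxidation 7 had log2 fold changes above 0, against 49.2% of kept genes. At an unadjusted p under 0.05 by edgeR 5 were higher and 1 lower. The 2 below 0, named for that, were Ucp2 (-0.34 ± 0.13) and Txnip (-0.03). EdgeR called 2 of the 9 higher, Angptl4 (1.57 ± 0.22, adjusted p = 0.0350) and Vldlr (adjusted p = 0.0358). Vldlr had 34 and 22 counts with high-fat diet and 2 and 1 with control diet. Of these 2 genes, Vldlr reached the count filter through its high-fat libraries alone. With control replicate 1 or control replicate 2 left out edgeR called neither of them, though their log2 fold changes were then 1.55 and 1.58 for Angptl4 and 4.48 and 3.62 for Vldlr. Angptl4 also missed the threshold at 1.503 with the trends on GC content and length removed and at 1.54 by limma-voom. DESeq2 called 4 genes of this list higher, Angptl4, Vldlr and Hilpda among them, beside 2.72% of all its tested genes in either direction. Limma-voom called 1, Vldlr. Hilpda, a lipid droplet protein, had 240.3 and 241.0 CPM with high-fat diet, against 149.9 and 184.0 CPM with control diet (0.53 ± 0.11, adjusted p = 0.0757 by edgeR and 0.00493 by DESeq2). EdgeR called Hilpda higher with no low-count filter, a fit that called 522 of all genes, against 78 in the main fit. The log2 fold change of Hilpda was 0.38 and 0.68 without control replicate 1 and control replicate 2. Dropping high-fat replicate 1 gave 0.53, and dropping high-fat replicate 2 in its place gave 0.52. Pdk4, a kinase that restrains pyruvate oxidation, did not reach the count filter, with 17 and 9 counts with high-fat diet and 1 and 1 with control diet, and is named because of these values.

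Of the listed genes outside the 9, those whose log2 CPM followed the mean of the 9 most closely over the 4 libraries were Idh3b, a citric acid cycle subunit (r = 0.994), the acyl-CoA thioesterase Acot1 (0.975), the ATP synthase subunit Atp5b (0.973), the AMPK catalytic subunit Prkaa1 (0.971) and Eci2 (0.962). Over all kept genes 38 (0.298%) reached the r of Idh3b, 158 that of Acot1, 174 that of Atp5b, 183 that of Prkaa1 and 250 (1.96%) that of Eci2.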

How the data were processed

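Ribosomal RNA-depleted paired-end libraries from macrophages of 2 diets were analysed, 2 per diet. The authors deposited raw read counts per gene, whole numbers without normalization, and the mm9 gene models behind them; TopHat2 2.0.10, Cufflinks 2.1.1, HTSeq and mm9 are named, per the submitters' processing notes, and no source used here gives the strand setting. The 5 summary lines of each table stayed out of totals; alignments at several places made up 37.5% to 48.5% of all lines, reads in no gene 13.5% to 15.0% and ambiguous reads 0.664% to 0.823%. Replicates differed beyond sampling noise in both diets (chi-square per degree of freedom 28.9 with high-fat and 27.7 with control diet).

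Genes were kept with filterByExpr of edgeR 4.0.16 (minimum count 10, total 15), which left 12747. The test was the quasi-likelihood test with TMM and robust fitting, diet as the only term and 2 residual degrees of freedom, adjusted by Benjamini-Hochberg over all kept genes at 0.05. Log2 fold changes are high-fat over control, the SE is their size over the square root of F, and intervals use the t quantile of the moderated degrees of freedom. CPM use TMM-adjusted totals, and log2 CPM a prior count of 2. The fit was tested on simulated data. Alternatives were DESeq2 1.42.0, limma-voom (limma 3.58.1), other size factors and filters, no robust fitting, RefSeq genes only, a replicate block, removal of each library's spline trend on GC content (GENCODE M21 transcripts on GRCm38, matched by RefSeq accession for 12148 of 12747 kept genes) and exon length, and leaving out each library.

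The genes, the 12 gene lists and the 9 marker lists were chosen with earlier results of these data known. Named beside the 9 genes are list members past the threshold, the 3 with the smallest p per list (5 for shuttle and peroxisomes), and the 5 closest by r; other genes are named for their step in the pathway, chosen after their values were seen. A few of the listed genes are not reported here.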

Additional observations from a re-analysis of the deposited data

How the results depend on the processing

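Of the 9 genes, 0 were called in any fit on all 4 libraries. Leaving out a library leaves 1 in its diet, so the spread within a diet is then seen in the other diet only. Without high-fat replicate 2 the log2 fold change of Acaa2 was 0.59. The median log2 fold change of the 9 genes was 0.16, against 0.0204 after removal of the trend on GC content and length and 0.07 to 0.21 leaving out a library. The log2 fold change of Acadvl turned to 0.052 without high-fat replicate 2 (range -0.21 to 0.052), and that of Hadha to -0.0575 without high-fat replicate 1 (range -0.0575 to 0.18). Of the wider oxidation genes 0 were called, against 2 by DESeq2, 3 with no low-count filter and 0 to 3 leaving out a library. Crat turned to 0.0322 with the trend removed, and Sardh to 0.068 without high-fat replicate 2 (range -1.69 to 0.068). Over all genes 78 calls became 356 by DESeq2, 522 with no low-count filter, 46 with a CPM filter, 46 by limma-voom, 147 with the trend removed and 15 to 831 leaving out a library. The difference between diets in the log2 ratio of Hadha to Hadhb was -0.10, and -0.16 to -0.04 leaving out a library. With the trend removed the order turned, with log2 fold changes of 0.052 for Hadha and 0.0204 for Hadhb. For these changes the cause was not tested. Replicate numbers are shared only as numbers: the replicate differences of the 2 diets correlated at 0.089, and with a replicate block 0 of the 9 genes and 0 wider genes were called, beside 113 of all genes. With 2 libraries per diet the intervals of the 9 genes are wide beside their fold changes.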
